A study of Arabidopsis thaliana with 14 samples.

Results

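Early senescent (ES) leaves of wild type (WT) Arabidopsis were compared with young leaves (YL) of WT, using 4 RNA-seq libraries out of the 14 samples of the series. Both ES libraries (replicates 1 and 2) and both YL libraries (replicates 1 and 2) were taken by their labels, and no measured value entered the choice. The plants of both groups were Columbia-0, with no transgene and no mutant allele, and grew on soil in continuous light. The YL are labelled as leaves of 2 weeks, while the study's methods describe a younger seedling, and no age in weeks is given for the ES leaves. The other samples are *hda9* and *pwr* mutant leaves and ChIP-seq of HDA9, a histone deacetylase, or of acetylated histone H3, and were not analysed here, except that the mutant leaf libraries enter 1 alternative fit. The study's methods call the RNA-seq replicates biological, without saying which plants or harvests they came from, and the p-values measure the spread between these libraries.

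Leaf senescence is the last stage of a leaf's life, in which chlorophyll is degraded, chloroplast proteins are broken down, and nitrogen and sugars are exported to growing organs and seeds. NAC and WRKY transcription factors drive much of the expression programme, and abscisic acid (ABA), jasmonate, salicylic acid and ethylene promote it, while cytokinin delays it. A young leaf is in the opposite state, with dividing and expanding cells and newly built chloroplasts.

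Values are FPKM (fragments scaled to transcript length in kilobases and to the library's mapped fragments) after rescaling each library by the median of its ratios to the mean library, and are listed in the order replicate 1 and replicate 2. Differences are log2 differences, ES minus YL, of rescaled FPKM + 1 with their standard error (SE), a scale that understates the change of low genes. A gene is called higher or lower at a Benjamini-Hochberg adjusted p under 0.05 in limma over the 18693 genes whose FPKM averaged 1 or more. In ES leaves 1858 genes were called higher (9.94% of those tested) and 2227 lower (11.9%). At an unadjusted p under 0.05, 3639 genes were higher (19.5%) and 3782 lower (20.2%). Both ES libraries lay above both YL libraries in 34.5% of all tested genes and below both in 33.2%. These shares of all genes are the reference for the counts of each gene list below. Every called gene had a difference of at least 1.09 on the log2 scale and the same direction in both pairs of same-numbered libraries. Without rescaling the median difference of all genes was 0.53 instead of 0.03, and 3970 genes were called higher and 1510 lower. With any of the 4 libraries left out, no gene passed the adjusted threshold, the lowest adjusted p being 0.056, although between 2044 and 3059 genes were higher and between 2478 and 2935 lower at an unadjusted p under 0.05. Without the filter on FPKM 1161 genes were called higher and 1784 lower, and 30 of the genes named by rule lost their call, among them NAP, NAC046, SRG1, WRKY18, PORB, the 3 RBCS genes, SWEET15, NCED3, KIN1, KIN2, AOC1, JAZ5, DFR, AHK3 and CSD1.

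The ES and YL values stand in separate deposited tables, so that leaf age and table cannot be told apart. ES replicate 2 and YL replicate 2 shared a feature not found in another pair of libraries: of 1757 genes under 1 FPKM in both, 8.88% had exactly the same ratio of FPKM (to 4 significant digits), 0.779, while the commonest ratio held at most 0.23% in any other pair. If these genes held equal numbers of whole reads over equal lengths, the reads of ES replicate 2 would be 1.28 times those of YL replicate 2. This was not checked against read totals. The replicate 1 libraries showed no such ratio. Differences between same-numbered libraries are given for some genes and lists as a description, since the numbers do not establish a pairing. On the log2 scale the correlation across genes was 0.911 between ES libraries, 0.925 between YL libraries and from 0.69 to 0.741 between an ES and a YL library. A short gene among the ribosomal RNA genes of chromosome 2, AT2G01021, had deposited FPKM of 54790 and 36730 in ES leaves and 2104000 and 432900 in YL, and 18S rRNA had 874 and 726 in ES leaves and 7465 and 1315 in YL. Ribosomal RNA signal was thus highest in YL replicate 1, and both ES libraries lay below both YL libraries. The YL libraries also differed widely from each other, and neither gene was called (limma, adjusted p = 0.15 for AT2G01021 and 0.113 for 18S rRNA). The part of this signal in the results was not tested.

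The labelled tissue was checked against markers of other organs. The 4 markers of the shoot apex summed to 0.21 and 0.109 FPKM in ES leaves and to 13 and 13.8 FPKM in YL. KNAT1 and STM, homeobox genes of the meristem that leaves normally lack, made up nearly all of it, with 0.124 and 0 FPKM in ES leaves, against 6.87 and 9.25 FPKM in YL for KNAT1 and 0.0855 and 0.109 FPKM in ES leaves, against 6.13 and 3.73 FPKM in YL for STM. WUS was listed at 0 in all 4 libraries and CLV3 in all except YL replicate 2. The 4 root markers summed to 0 and 0.0973 FPKM in ES leaves and to 7.67 and 6.97 FPKM in YL. The 5 flower markers summed to 1.07 and 3.53 FPKM in ES leaves and to 8.52 and 6.83 FPKM in YL. PI, a floral organ identity gene, had 0.0534 and 0.353 FPKM in ES leaves, against 6.67 and 4.03 FPKM in YL, and SEP3 had 0.272 and 1.42 FPKM in ES leaves, against 1.85 and 2.66 FPKM in YL, whereas AG and SEP1 were listed at 0 in YL and reached 0.711 and 1.05 FPKM in ES replicate 2. Without the filter on FPKM 1 of the 5 flower markers was called lower and 1 higher. The 3 seed markers were listed at 0 in ES leaves and summed to 4.91 and 0.176 FPKM in YL. The YL libraries thus held low levels of the shoot apex and root markers listed here and of the flower gene PI, all near 0 in the ES libraries. Of the 4 root markers 1 was tested, PRP3. NRT1.5 and PYK10, described below and also known from roots, had 46.9 and 52 FPKM and 777 and 1060 FPKM in YL. The part of such transcripts in the genes lower in ES leaves was not tested. In bulk samples fewer cells of a type and less RNA per cell cannot be told apart.

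To ask which senescence programme was active in the ES leaves, the marker genes of senescence were examined first. Of 13 tested members of the SAG and SEN list, 6 were called higher and none lower, against 9.94% and 11.9% of all genes, with a median difference of 1.31 (0.03 over all genes), and without the filter 3 were called. The median was 1.25 between the replicate 1 libraries and 2.35 between the replicate 2 libraries. SAG13 (AT2G29350, chr2:12600914-12602556 in TAIR10.1), a short-chain alcohol dehydrogenase, stood at 105 and 283 FPKM in ES leaves, against 1.64 and 0.131 FPKM in YL, a difference of 6.65 ± 0.63 (SE; limma, adjusted p = 0.00535), and the groups lay far apart. SAG2, the vacuolar protease aleurain, stood at 981 and 1996 FPKM in ES leaves, against 221 and 141 FPKM in YL, with a difference of 2.98 ± 0.57 (limma, adjusted p = 0.0227). SEN4, a xyloglucan endotransglucosylase of the cell wall, stood at 327 and 509 FPKM in ES leaves, against 104 and 56.4 FPKM in YL, with a difference of 2.40 ± 0.49 (limma, adjusted p = 0.0263). SRG1, an oxygenase-like protein, had 8.57 and 50.1 FPKM in ES leaves, against 1.19 and 1.86 FPKM in YL, and SAG101, a partner of the immune regulator EDS1, had 9.3 and 7.24 FPKM in ES leaves, against 2.82 and 2.99 FPKM in YL. All of these genes were higher in both ES libraries than in both YL libraries. SAG12, a cysteine protease that marks late senescence, was listed at 0 in ES replicate 1 and at 3.78 FPKM in ES replicate 2, and at 0 in both YL libraries, too low to be tested. SAG113, a protein phosphatase, had 13.1 and 123 FPKM in ES leaves, against 10.4 and 1.99 FPKM in YL, and its difference of 2.84 ± 1.14 was not called (limma, adjusted p = 0.124), being 0.30 between the replicate 1 libraries and 5.38 between the replicate 2 libraries. SAG21 and SAG24 had lower means in ES leaves, with 46.8 and 439 FPKM in ES leaves, against 288 and 353 FPKM in YL for SAG21, and were not called.

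Transcription factors of the NAC family include the best known switches of leaf senescence. Of 14 tested members 6 were called higher and none lower, against 9.94% and 11.9% of all genes, with a median difference of 1.71. In 12 both ES libraries lay above both YL libraries, against 34.5% of all genes. Without the filter 2 were called and in a fit of all 9 RNA-seq libraries, mutants included, 4, and the median was 0.79 between the replicate 1 libraries and 2.38 between the replicate 2 libraries. NAP, which activates the ABA phosphatase gene SAG113 and chlorophyll breakdown, stood at 18.1 and 47.1 FPKM in ES leaves, against 3.62 and 0.828 FPKM in YL, a difference of 3.38 ± 0.63 (limma, adjusted p = 0.0213). NAC019, an ABA and jasmonate responsive factor, stood at 16 and 92 FPKM in ES leaves, against 0.333 and 0.23 FPKM in YL, a difference of 4.96 ± 0.79 (limma, adjusted p = 0.015). NAC046, which promotes chlorophyll breakdown, had 5.37 and 14.7 FPKM in ES leaves, against 1.2 and 0.386 FPKM in YL. JUB1, known as a factor that delays senescence, was among the called genes as well, with 4.31 and 2.97 FPKM in ES leaves, against 0 and 0.73 FPKM in YL. ORE1, a positive regulator of leaf death, had 8.67 and 56.2 FPKM in ES leaves, against 5.7 and 3.27 FPKM in YL, and its difference of 2.14 ± 0.84 was not called (limma, adjusted p = 0.12). For ORE1 the difference was 0.53 between the replicate 1 libraries and 3.74 between the replicate 2 libraries. ES replicate 2 exceeded ES replicate 1 in 12 of the 14 NAC genes, against 9073 of all 18693 genes.

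WRKY factors bind the W-box and link senescence with defence. Of 14 tested members 7 were called higher (50%, against 9.94% of all genes) and none lower, with a median difference of 1.97. Without the filter 4 were higher, and in the fit of 9 libraries 5 were higher and 1 lower. WRKY57, known as a repressor of jasmonate-induced senescence, stood at 24 and 27.2 FPKM in ES leaves, against 2.57 and 1.99 FPKM in YL, a difference of 3.02 ± 0.30 (limma, adjusted p = 0.00588), with little spread in either group. WRKY25 had 18.4 and 51.1 FPKM in ES leaves, against 2.47 and 3.44 FPKM in YL, and WRKY18 had 12.3 and 41.4 FPKM in ES leaves, against 1.67 and 3.22 FPKM in YL. The salicylic acid responsive pair WRKY54 and WRKY70, which act as negative regulators of senescence, were both called, with 70.3 and 43.1 FPKM in ES leaves, against 17.6 and 9.68 FPKM in YL for WRKY70. WRKY53, a known regulator of early senescence, had 4.11 and 9.95 FPKM in ES leaves, against 9.07 and 10.4 FPKM in YL, so that its groups overlapped in part, and it was not called (limma, adjusted p = 0.418). Without ES replicate 1 its difference was 0.07 instead of -0.52. WRKY22 had 2.55 and 2.98 FPKM in ES leaves, against 14.2 and 5.48 FPKM in YL and was not called either.

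Transcripts of HDA9, PWR and HOS15, and not their proteins, were measured in the same libraries. PWR (AT3G52250, chr3:19376138-19383369 in TAIR10.1), the SANT domain partner of HDA9, stood at 8.94 and 12.8 FPKM in ES leaves, against 2.14 and 2.42 FPKM in YL, a difference of 1.84 ± 0.32 (limma, adjusted p = 0.0187). HDA9 had 5.21 and 8.82 FPKM in ES leaves, against 4.17 and 5.47 FPKM in YL and its difference of 0.43 ± 0.36 was not called (limma, adjusted p = 0.41). For the protein, the paper reports a slightly higher HDA9 level in early senescent leaves, a measure not made here. HOS15, a WD40 protein related to subunits of histone deacetylase complexes, had 5.63 and 15.8 FPKM in ES leaves, against 6.66 and 12.7 FPKM in YL and overlapped between the groups. Of 11 genes that the study names as bound by HDA9, 6 were called higher in ES leaves (54.55%, against 9.94% of all genes) and none lower. Their median difference was 1.34, and without the filter 2 were called higher. The study chose these genes partly on the WT ES libraries used here, so that the count is not independent evidence of a direction. Besides WRKY57, the called genes were the autophagy genes ATG9, ATG2 and ATG13A, the catalase gene CAT1 with 27 and 35.9 FPKM in ES leaves, against 8.33 and 8.63 FPKM in YL, and the phosphatase gene PLL5 with 12.2 and 15.6 FPKM in ES leaves, against 5.27 and 3.83 FPKM in YL. NPX1, a nuclear regulator of ABA responses, had 4.47 and 7.35 FPKM in ES leaves, against 3.45 and 5.2 FPKM in YL, and AFP2, an ABI5 binding protein, had 1.6 and 2.31 FPKM in ES leaves, against 3.87 and 10.5 FPKM in YL, and neither was called.

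**Figure D1:**
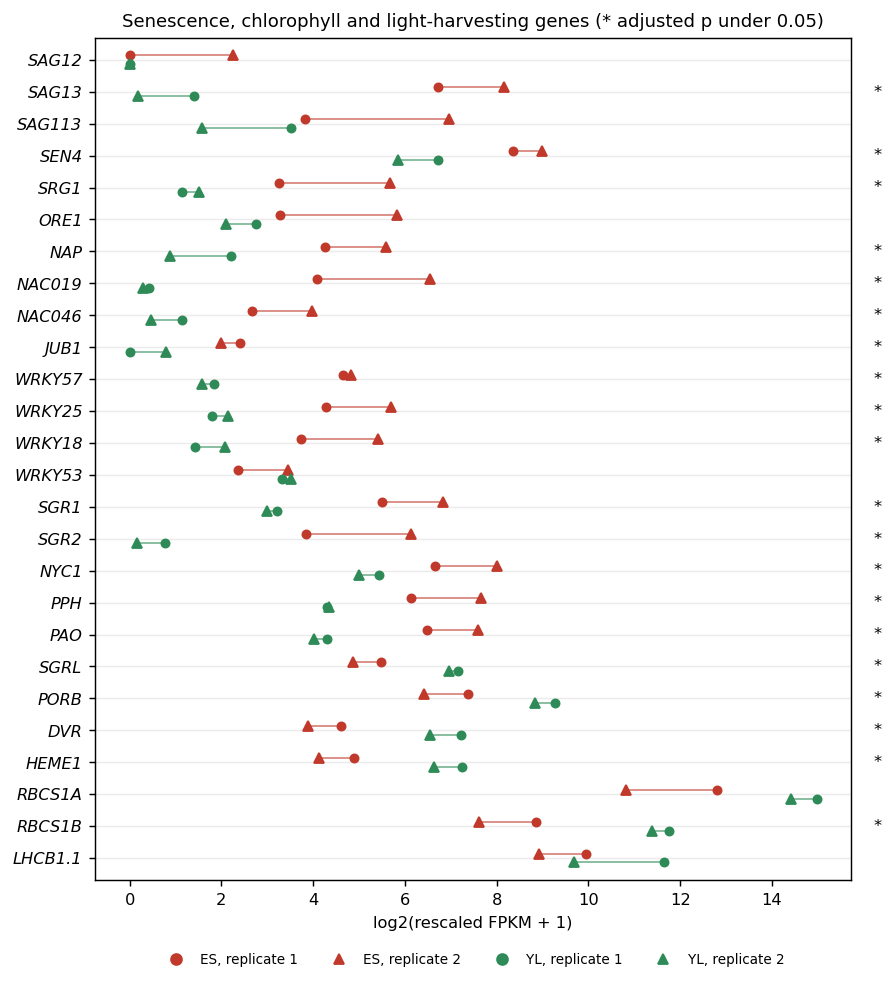
Levels of senescence, chlorophyll and light-harvesting genes in each library, as log2(rescaled FPKM + 1), with ES leaves in red above YL in green, circles for replicate 1, triangles for replicate 2 and an asterisk at called genes. SAG13 lies at 105 and 283 FPKM in ES leaves, clear of YL, whereas the WRKY53 and LHCB1.1 values of the groups overlap.

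Chlorophyll breakdown and synthesis were examined next. Of 11 tested members of breakdown 5 were called higher (45.45%, against 9.94% of all genes) and 1 lower (9.09%, against 11.9%). The median difference was 1.71, and 9 were called higher without rescaling and 3 without the filter. SGR1 (AT4G22920, chr4:12016420-12018643 in TAIR10.1), the magnesium dechelatase that starts chlorophyll degradation, stood at 44.5 and 113 FPKM in ES leaves, against 8.25 and 6.92 FPKM in YL, a difference of 3.08 ± 0.50 (limma, adjusted p = 0.0157). Its paralogue SGR2 stood at 13.3 and 68.7 FPKM in ES leaves, against 0.696 and 0.124 FPKM in YL, a difference of 4.51 ± 0.76 (limma, adjusted p = 0.017). The next enzymes of the route were called too, with 69.4 and 201 FPKM in ES leaves, against 18.6 and 19.3 FPKM in YL for the pheophytinase PPH and 88.6 and 193 FPKM in ES leaves, against 18.6 and 15.3 FPKM in YL for the ring-opening oxygenase PAO. NYC1, the chlorophyll b reductase, had 101 and 257 FPKM in ES leaves, against 42.2 and 31.2 FPKM in YL. The gene called lower was SGRL, an SGR-like gene active in young green tissue, with 43.9 and 28.1 FPKM in ES leaves, against 142 and 123 FPKM in YL. The chlorophyllase CLH1, not needed for senescence in Arabidopsis, had 208 and 158 FPKM in ES leaves, against 75.2 and 72.9 FPKM in YL and was not called.

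Of 21 tested genes of chlorophyll synthesis 7 were called lower (33.3%, against 11.9% of all genes) and none higher, with a median difference of -1.08. Without rescaling 4 were called lower, and also without the filter. DVR, which reduces divinyl chlorophyllide, stood at 23.3 and 13.8 FPKM in ES leaves, against 149 and 92.8 FPKM in YL, a difference of -2.64 ± 0.43 (limma, adjusted p = 0.0157). HEME1, a uroporphyrinogen decarboxylase, had 28.6 and 16.4 FPKM in ES leaves, against 149.6 and 98.9 FPKM in YL, and PORB, a light-dependent protochlorophyllide reductase, had 164 and 84.8 FPKM in ES leaves, against 614 and 459 FPKM in YL. HEMA1, the regulated first enzyme of the pathway, had 63.4 and 82 FPKM in ES leaves, against 93.8 and 58.3 FPKM in YL and did not differ beyond its spread. CAO, which makes chlorophyll b, had 76.4 and 49.3 FPKM in ES leaves, against 54.1 and 39.2 FPKM in YL and was not called.

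Among genes of the light-harvesting antenna and of Rubisco the groups overlapped in 13 of 22, against 6023 of all 18693 genes. Of these 22 tested members 4 were called lower and none higher, with a median difference of -0.81. The share called lower was 18.2%, against 11.9% of all genes, with none called without the filter on FPKM and 2 in the fit of all 9 RNA-seq libraries. RBCS1B, RBCS2B and RBCS3B, neighbouring genes for the small subunit of Rubisco, were called, with 462 and 194 FPKM in ES leaves, against 3482 and 2676 FPKM in YL for RBCS1B and a difference of -3.34 ± 0.64 (limma, adjusted p = 0.0223). RBCS1A, the most abundant member, had 7141 and 1812 FPKM in ES leaves, against 32150 and 21710 FPKM in YL and a difference of -2.88 ± 1.07 that missed the threshold (limma, adjusted p = 0.106). LHCB1.1 had 988 and 481 FPKM in ES leaves, against 3203 and 824 FPKM in YL, with a difference of -1.24 ± 0.84 (limma, adjusted p = 0.316), while LHCB1.4 was called lower at 492 and 428 FPKM in ES leaves, against 6291 and 1926 FPKM in YL. LHCA4 and LHCB2.1 had positive differences, 0.46 and 0.21, that were not called. The LHCB1 genes and the RBCS genes are near-identical copies, so that the split of reads among them is uncertain. None of the 20 nuclear photosystem genes was called in limma, 2 were lower at an unadjusted p under 0.05, and their median difference was -1.31. In 15 of these 20 genes both ES libraries lay below both YL libraries, against 33.2% of all genes. ES replicate 1 exceeded ES replicate 2 in all 20 and YL replicate 1 exceeded YL replicate 2 in 19 of 20. Of 11 tested photorespiration genes 2 were called lower (18.2%, against 11.9% of all genes, and none without the filter). They were GLDT with 216 and 124 FPKM in ES leaves, against 873 and 708 FPKM in YL and GLDH1 with 259.7 and 208 FPKM in ES leaves, against 1098 and 867 FPKM in YL, both of the glycine cleavage system. The median of that list, -0.55, became 0.01 without rescaling. Genes of the chloroplast genome are not analysed here.

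Promoter sequences are shown for 3 genes described above, a NAC factor, a chlorophyll gene and a WRKY factor, since these families are known to be controlled through short elements near the start. They are the 250 bases before the gene's annotated start, read from RefSeq (TAIR10.1), 5′ to 3′ on the gene's strand, and were chosen because they held a match. Capitals mark the W-box (TTGACC or TTGACT), the G-box (CACGTG) and the ABA responsive element ABRE (ACGTGNC) on either strand, and a G-box and an ABRE can share letters.
NAP (chr1:26121830-26122079, plus strand): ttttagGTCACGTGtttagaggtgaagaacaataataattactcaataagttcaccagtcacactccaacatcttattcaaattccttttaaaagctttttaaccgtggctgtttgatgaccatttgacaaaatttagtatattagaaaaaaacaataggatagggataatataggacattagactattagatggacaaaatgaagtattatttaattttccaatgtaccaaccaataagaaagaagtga
SGR2 (chr4:7155900-7156149, plus strand): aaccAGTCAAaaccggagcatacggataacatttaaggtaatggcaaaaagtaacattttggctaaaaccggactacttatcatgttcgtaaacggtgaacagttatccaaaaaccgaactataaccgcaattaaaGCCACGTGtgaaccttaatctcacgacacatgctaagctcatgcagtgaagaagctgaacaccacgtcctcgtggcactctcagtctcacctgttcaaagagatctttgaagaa
WRKY25 (chr2:12905339-12905588, minus strand): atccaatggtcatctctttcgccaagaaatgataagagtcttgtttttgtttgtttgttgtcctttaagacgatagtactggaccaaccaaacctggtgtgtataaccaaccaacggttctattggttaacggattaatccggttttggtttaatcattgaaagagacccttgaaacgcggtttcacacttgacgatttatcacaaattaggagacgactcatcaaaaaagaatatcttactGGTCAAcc
In NAP 1 G-box and 1 ABRE overlap at the far end of the window, SGR2 holds 1 match of each of the 3 motifs, and WRKY25 holds 1 W-box next to the start. In their lists a W-box was in 2 of 14 NAC windows, 1 of 11 chlorophyll breakdown windows and 6 of 14 WRKY windows. A G-box was in 3, 2 and 1 of these windows, and an ABRE in 5, 2 and 2. Over all genes called higher 31.5% of windows held a W-box, against 25.5% of genes called lower and 28% of the 18618 windows read. The G-box was in 8.34% of windows of genes called higher, 5.31% of those called lower and 7.39% of all, and the ABRE in 11.7%, 7.97% and 9.57%. These shares are descriptions of letters and were not tested.

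Recycling genes followed. Of 29 autophagy genes 7 were called higher (24.1%, against 9.94% of all genes) and none lower, with a median difference of 0.95. In 24 both ES libraries lay above both YL libraries, against 34.5% of all genes. Without rescaling 15 were called, in the fit of 9 libraries 13, and without the filter 3. ATG1A, a kinase that starts autophagy, stood at 21.9 and 21.2 FPKM in ES leaves, against 3.97 and 6.98 FPKM in YL, a difference of 1.84 ± 0.35 (limma, adjusted p = 0.0226). ATG13B, its regulatory partner, had 8.44 and 4.83 FPKM in ES leaves, against 1.14 and 1.73 FPKM in YL, and ATG9, a membrane protein of the growing autophagosome, had 11 and 15.6 FPKM in ES leaves, against 4.4 and 3.02 FPKM in YL. The 9 ATG8 genes, which encode the tag on the autophagosome membrane, were not called, ATG8F and ATG8I coming nearest with differences of 1.39 and 1.37. Of 6 tested vacuolar proteases 3 were called higher (50%, against 9.94% of all genes), the median being 2.27, SAG2 among them. GVPE, the gamma vacuolar processing enzyme, stood at 533 and 331 FPKM in ES leaves, against 35.5 and 24.5 FPKM in YL, a difference of 3.79 ± 0.43 (limma, adjusted p = 0.00755), and CATHB3, a cathepsin B-like protease, had 288 and 486 FPKM in ES leaves, against 65.7 and 44.7 FPKM in YL.

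Nitrogen genes were called in both directions, though few in each. Of 16 tested members 3 were called higher and 3 lower (18.75% each, against 9.94% and 11.9% of all genes), with a median difference of 0.10. GLN1;1, a cytosolic glutamine synthetase, stood at 180.3 and 303 FPKM in ES leaves, against 13 and 22.3 FPKM in YL, a difference of 3.70 ± 0.45 (limma, adjusted p = 0.00872). NRT1.7, which loads nitrate into the phloem of old leaves, stood at 145 and 245 FPKM in ES leaves, against 18 and 12.7 FPKM in YL, a difference of 3.55 ± 0.41 (limma, adjusted p = 0.00809), and PPDK, a pyruvate orthophosphate dikinase, had 89 and 158 FPKM in ES leaves, against 17.5 and 9.59 FPKM in YL. The genes called lower were NIA1, a nitrate reductase with 36.2 and 37.5 FPKM in ES leaves, against 107 and 110.0 FPKM in YL, the asparagine synthetase ASN2 with 39.9 and 44.7 FPKM in ES leaves, against 249 and 224 FPKM in YL, and NRT1.5, a xylem nitrate transporter of roots, with 3.41 and 12.2 FPKM in ES leaves, against 46.9 and 52 FPKM in YL. GLN2, the plastid glutamine synthetase, had 658 and 465 FPKM in ES leaves, against 1522 and 1427 FPKM in YL and was not called. Of 10 sugar transport genes 4 were called higher (40%, against 9.94% of all genes) and 1 lower (10%, against 11.9%). Without the filter 2 were higher and none lower. SWEET15 (also SAG29) stood at 22.5 and 263 FPKM in ES leaves, against 1.65 and 0.225 FPKM in YL, with a difference of 3.15 between the replicate 1 libraries and 7.75 between the replicate 2 libraries. SWEET12, a sucrose exporter of phloem parenchyma, stood at 297 and 221 FPKM in ES leaves, against 26.2 and 24 FPKM in YL, and the hexose importer STP13 at 103 and 114 FPKM in ES leaves, against 15.9 and 4.7 FPKM in YL. SWEET16, a vacuolar sugar carrier, was the member called lower, with 1.94 and 2.24 FPKM in ES leaves, against 14.3 and 7.67 FPKM in YL.

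**Figure D2:**
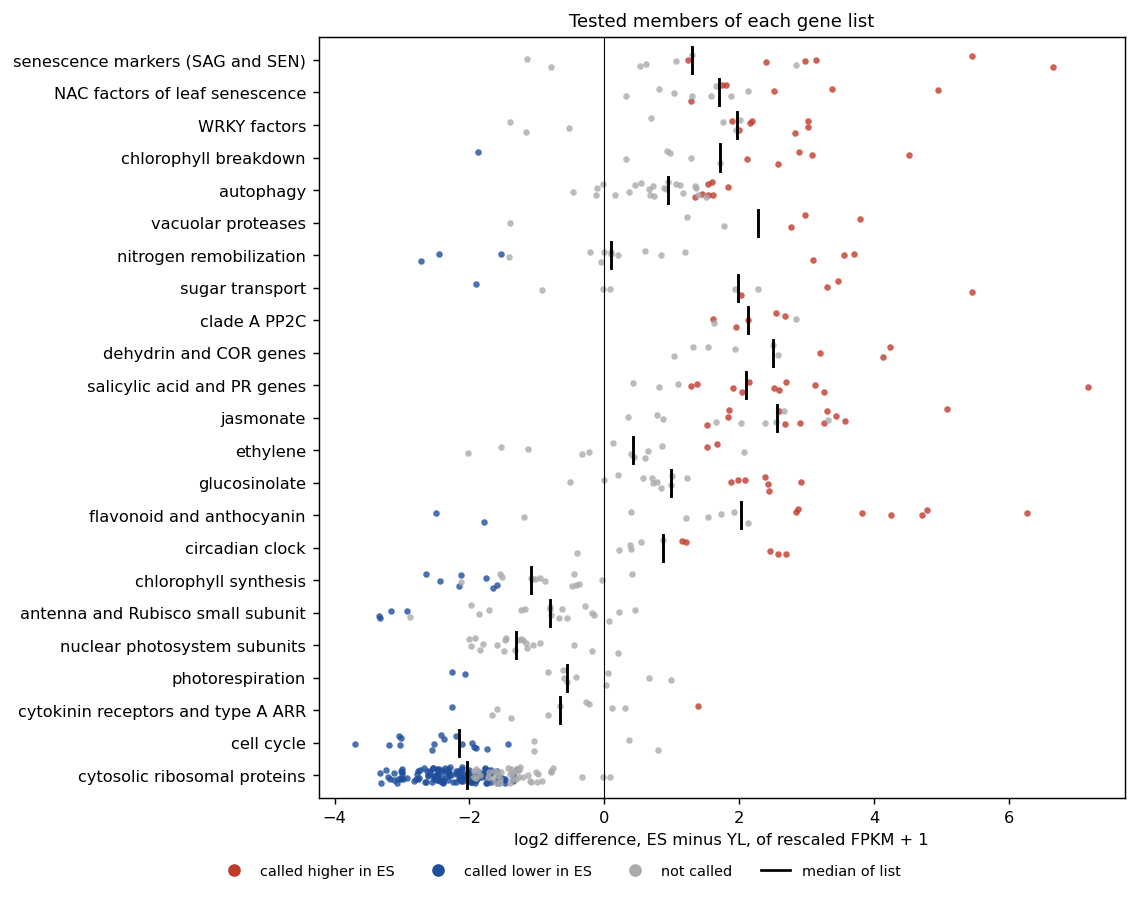
Log2 difference, ES minus YL, of every tested member of 23 gene lists, with genes called higher in red, called lower in blue, not called in grey and the list's median as a black bar. Lists of senescence, recycling, salicylic acid and jasmonate genes lie mostly right of 0, and cell cycle and cytosolic ribosomal protein genes left of it, with medians of -2.15 and -2.04.

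ABA promotes senescence through its receptors, which inhibit clade A phosphatases and so release kinases. Of 9 tested genes of ABA synthesis and breakdown 4 were called higher (44.4%, against 9.94% of all genes) and none lower. Without the filter 1 was higher, and in the fit of 9 libraries 5 were higher and 1 lower. NCED3, the rate-limiting enzyme of synthesis, stood at 13.8 and 40.3 FPKM in ES leaves, against 5.17 and 1.41 FPKM in YL, a difference of 2.68 ± 0.66 (limma, adjusted p = 0.0411), ABA1, zeaxanthin epoxidase, at 169 and 182 FPKM in ES leaves, against 35.3 and 26.3 FPKM in YL, and AAO3, the oxidase of the last step, at 4.87 and 15.5 FPKM in ES leaves, against 1.18 and 1.14 FPKM in YL. CYP707A4, which inactivates ABA, was the fourth, with 5.16 and 4.34 FPKM in ES leaves, against 1.54 and 0.918 FPKM in YL. Among the 9 receptors PYL9 was called higher (11.1%, against 9.94% of all genes), with 29.5 and 24.6 FPKM in ES leaves, against 6.62 and 8.08 FPKM in YL. PYL4 and PYL5 were called lower (22.2%, against 11.9% of all genes), and in the fit of 9 libraries 2 were higher and 3 lower. PYL4 stood at 25 and 8.31 FPKM in ES leaves, against 222 and 119.6 FPKM in YL, a difference of -3.40 ± 0.60 (limma, adjusted p = 0.019). Of the 7 tested clade A phosphatases, which block the pathway, 5 were called higher, against 9.94% of all genes, with a median of 2.13. All 7 had both ES libraries above both YL libraries, against 34.5% of all genes, and ES replicate 2 above ES replicate 1. Without the filter on FPKM 1 was called. The median was 1.35 between the replicate 1 libraries and 2.57 between the replicate 2 libraries. HAI1, also known as SAG113, is a member. AHG3 stood at 86.3 and 170.4 FPKM in ES leaves, against 20.2 and 19.8 FPKM in YL, a difference of 2.54 ± 0.43 (limma, adjusted p = 0.017), HAI2 at 3.91 and 17.5 FPKM in ES leaves, against 0.702 and 0.307 FPKM in YL and ABI2 at 9.09 and 20.2 FPKM in ES leaves, against 1.98 and 2.75 FPKM in YL. None of the 5 ABF and ABI5 factors was called in limma, or reached an unadjusted p under 0.05.

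ABA and cold responsive genes differed between the ES libraries. Of 9 dehydrin and COR genes 3 were called higher (33.3%, against 9.94% of all genes), with 1 without the filter and 5 without rescaling. All 9 were higher in ES replicate 2 than in ES replicate 1. COR15A, a chloroplast protein that protects membranes, stood at 586 and 911 FPKM in ES leaves, against 53 and 26.7 FPKM in YL, a difference of 4.24 ± 0.50 (limma, adjusted p = 0.00835). KIN1 and KIN2, close copies of each other, were called as well, with 36.9 and 249.9 FPKM in ES leaves, against 3.57 and 5.74 FPKM in YL for KIN1. RAB18, a dehydrin, had 7.77 and 353 FPKM in ES leaves, against 35.9 and 4.68 FPKM in YL, and RD29B had 0.241 and 31.9 FPKM in ES leaves, against 3.22 and 0.577 FPKM in YL, and the groups overlapped in both. The median of the list was 0.64 between the replicate 1 libraries and 4.38 between the replicate 2 libraries. Without ES replicate 2 the difference was -0.70 for RAB18 and -1.0 for RD29B, instead of 1.94 and 1.31. COR47 had 182 and 1431 FPKM in ES leaves, against 177 and 175 FPKM in YL and was not called.

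The AHG3 promoter is shown because it held 3 ABRE matches, with the G-box and ABRE in capitals as above.
AHG3 (chr3:3585851-3586100, minus strand): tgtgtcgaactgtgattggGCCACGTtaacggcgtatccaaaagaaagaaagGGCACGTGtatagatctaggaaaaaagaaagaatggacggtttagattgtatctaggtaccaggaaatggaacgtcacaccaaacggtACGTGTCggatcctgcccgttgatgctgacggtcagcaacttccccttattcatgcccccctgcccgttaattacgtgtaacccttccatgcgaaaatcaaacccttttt
Among the promoters of the 7 tested clade A phosphatases 3 held an ABRE, and 2 of the 9 dehydrin and COR promoters did, against 9.57% of all.

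Salicylic acid accumulates in old leaves and in infected ones. Of 14 tested members 11 were called higher and none lower, against 9.94% and 11.9% of all genes, with a median of 2.098. All 14 had both ES libraries above both YL libraries, against 34.5% of all genes. In the fit of 9 libraries, and also without the filter, 6 of 15 were called. PR2, a secreted beta-1,3-glucanase, stood at 276 and 189.5 FPKM in ES leaves, against 1.05 and 0.237 FPKM in YL, a difference of 7.17 ± 0.40 (limma, adjusted p = 0.00225). PR1, the usual marker of salicylic acid responses, was at 11.6 and 5.1 FPKM in ES leaves and was listed at 0 in both YL libraries. ICS1, the enzyme that supplies most salicylic acid, stood at 13.9 and 9.28 FPKM in ES leaves, against 4.37 and 3.21 FPKM in YL, a difference of 1.38 ± 0.34 (limma, adjusted p = 0.0418). CBP60G, a calmodulin-binding activator of ICS1, had 13.7 and 22.3 FPKM in ES leaves, against 0.786 and 1.08 FPKM in YL, PBS3, which acts after ICS1, had 8.51 and 16.1 FPKM in ES leaves, against 1.02 and 0.907 FPKM in YL, and NPR3, a salicylic acid receptor, had 24.4 and 33.4 FPKM in ES leaves, against 6.52 and 5.86 FPKM in YL. EDS1 had 8.31 and 9.52 FPKM in ES leaves, against 6.66 and 6.07 FPKM in YL and was not called. Here neither ES library stood out, since ES replicate 2 exceeded ES replicate 1 in 5 of the 14 genes, and the median was 1.91 between the replicate 1 libraries and 2.04 between the replicate 2 libraries.

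Jasmonate is a hormone of wounding and defence. Of 20 tested members 11 were called higher and none lower, against 9.94% and 11.9% of all genes, with a median of 2.57. In 19 both ES libraries lay above both YL libraries, against 34.5% of all genes. Without rescaling 17 were called, in the fit of 9 libraries 15, and without the filter 7. The median was 1.74 between the replicate 1 libraries and 2.95 between the replicate 2 libraries. VSP1, a vegetative storage protein, stood at 585 and 639 FPKM in ES leaves, against 19.6 and 14.9 FPKM in YL, a difference of 5.08 ± 0.36 (limma, adjusted p = 0.00287). AOC1, an allene oxide cyclase of jasmonate synthesis, had 488 and 268 FPKM in ES leaves, against 60.5 and 14.2 FPKM in YL, and MYC2, the main transcription factor of the pathway, had 106 and 104 FPKM in ES leaves, against 21.4 and 12.8 FPKM in YL. Its repressors were higher too, with 11.4 and 41.8 FPKM in ES leaves, against 1.34 and 0.932 FPKM in YL for JAZ5 and 17.4 and 46.6 FPKM in ES leaves, against 1.94 and 2.28 FPKM in YL for JAZ10. PDF1.2, a defensin induced by jasmonate with ethylene, was at 2.21 and 2.96 FPKM in ES leaves and listed at 0 in YL. LOX2 and AOS, enzymes of synthesis with higher levels, missed the threshold, with 784 and 563 FPKM in ES leaves, against 225 and 70.8 FPKM in YL for LOX2 (limma, adjusted p = 0.0524). The AOC genes and VSP1 and VSP2 are close copies, and the split of reads between them is uncertain.

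Ethylene and cytokinin genes were examined last among the hormones. Of 14 tested ethylene genes 2 were called higher (14.3%, against 9.94% of all genes) and none lower, EIN3 with 69.5 and 104 FPKM in ES leaves, against 23.9 and 28.3 FPKM in YL and a difference of 1.68 ± 0.37 (limma, adjusted p = 0.0304), and ERF1 with 1.55 and 2.75 FPKM in ES leaves, against 0 and 0.163 FPKM in YL. EIN3 is the central transcription factor of ethylene responses. The median of the list was 0.42, and -0.16 without ES replicate 2. Without rescaling 4 were called higher, and in the fit of 9 libraries 3 higher and 2 lower. Of 11 tested cytokinin genes AHK3, the receptor that sustains leaf longevity, was called higher, with 32.9 and 44.1 FPKM in ES leaves, against 16.1 and 12 FPKM in YL, and the response regulator ARR15 lower, with 0.361 and 0.151 FPKM in ES leaves, against 2.63 and 8.9 FPKM in YL, so that 9.09% were called in each direction, against 9.94% and 11.9% of all genes. Neither was called without the filter, and the list's median was 0.30 between the replicate 1 libraries and -1.80 between the replicate 2 libraries. Other type A ARR genes, which report cytokinin signalling, were not called, for example ARR7 with 10.3 and 4.28 FPKM in ES leaves, against 12.6 and 43.5 FPKM in YL.

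Glucosinolates are defence compounds, and flavonoids include the anthocyanin pigments. Of 18 tested glucosinolate genes 7 were called higher (38.9%, against 9.94% of all genes, and 12 without rescaling) and none lower. These were enzymes. CYP79F1 had 285 and 294 FPKM in ES leaves, against 59.8 and 23.4 FPKM in YL. CYP83A1 had 374 and 437 FPKM in ES leaves, against 85.6 and 63.6 FPKM in YL. MAM1 had 290.0 and 377 FPKM in ES leaves, against 56.3 and 65.5 FPKM in YL. CYP79F1, CYP83A1 and MAM1 are of the aliphatic branch. Their activators MYB28 and MYB29 were not called, MYB28 having 109 and 70.8 FPKM in ES leaves, against 26.9 and 50.1 FPKM in YL. Of 16 tested flavonoid genes 7 were called higher (43.75%, against 9.94% of all genes) and 2 lower (12.5%, against 11.9%). Without the filter 1 was higher and 4 lower. The median was 1.08 between the replicate 1 libraries and 3.49 between the replicate 2 libraries. PAP1, the MYB activator of anthocyanin, stood at 77.3 and 133 FPKM in ES leaves, against 0.502 and 0.174 FPKM in YL, a difference of 6.27 ± 0.38 (limma, adjusted p = 0.00238). Its targets DFR, with 47 and 301 FPKM in ES leaves, against 3.43 and 3.32 FPKM in YL, and UGT79B1, with 19.1 and 142 FPKM in ES leaves, against 1.15 and 0.961 FPKM in YL, were much higher in ES replicate 2 than in ES replicate 1. FLS1, the flavonol synthase that competes with DFR for substrate, was called lower, with 1.5 and 0.836 FPKM in ES leaves, against 14.5 and 8.32 FPKM in YL, as was EGL3, a bHLH partner of the MYB factors, with 0.0305 and 0 FPKM in ES leaves, against 2.25 and 2.77 FPKM in YL. CHS, the first enzyme of the pathway, had 85.3 and 502 FPKM in ES leaves, against 84.8 and 45.4 FPKM in YL and was not called. Of 12 antioxidant and metallothionein genes CAT1 was called higher (8.33%, and 3 genes without rescaling) and 3 lower (25%), against 9.94% and 11.9% of all genes. The lower genes were CSD2 with 86 and 46 FPKM in ES leaves, against 1320 and 442 FPKM in YL, CSD1 with 118 and 161 FPKM in ES leaves, against 730.1 and 472 FPKM in YL and MT1C with 43.4 and 43.3 FPKM in ES leaves, against 150.3 and 180.0 FPKM in YL. The copper and zinc superoxide dismutases CSD1 and CSD2 differed by -2.08 ± 0.46 and -3.58 ± 0.66. CAT2, the main catalase of photosynthetic leaves, had 1309 and 737 FPKM in ES leaves, against 789 and 254 FPKM in YL and was not called.

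Clock and flowering genes differed in plants kept in continuous light. Of 11 clock genes 5 were called higher (45.45%, against 9.94% of all genes, and 3 with a filter at 5 FPKM) and none lower. PRR7, a morning repressor, stood at 28.4 and 26 FPKM in ES leaves, against 2.97 and 3.72 FPKM in YL, a difference of 2.70 ± 0.30 (limma, adjusted p = 0.00706), PRR9 at 7.08 and 5.58 FPKM in ES leaves, against 0.203 and 0.23 FPKM in YL and GI at 17 and 11.2 FPKM in ES leaves, against 1.61 and 1.79 FPKM in YL, while TOC1 had 23.9 and 29.2 FPKM in ES leaves, against 20.2 and 19.4 FPKM in YL and was not called. Harvest times of day are not given in the sources used here, and their part was not tested. FLC (AT5G10140, chr5:3173382-3179448 in TAIR10.1), the repressor of flowering, stood at 1.99 and 0.277 FPKM in ES leaves, against 17.5 and 17.5 FPKM in YL, a difference of -3.24 ± 0.47 (limma, adjusted p = 0.0122). SOC1, a floral integrator that FLC represses, had 75.9 and 73.5 FPKM in ES leaves, against 19.6 and 22.2 FPKM in YL, and FUL had 5.64 and 18.5 FPKM in ES leaves, against 0.591 and 0.785 FPKM in YL. TSF was at 2.8 and 4.66 FPKM in ES leaves and listed at 0 in YL, and its relative FT, the mobile flowering signal, had 2.98 and 10.4 FPKM in ES leaves, against 1.1 and 0.19 FPKM in YL and missed the threshold (limma, adjusted p = 0.0578). In the age pathway, 3 of 13 genes were called lower (23.1%, against 11.9% of all genes) and none higher, and without rescaling 1 of 12 was lower and 2 higher. The 3 were the AP2-like repressors SMZ, with 0.193 and 0.0752 FPKM in ES leaves, against 3.42 and 8.87 FPKM in YL, and TOE2, with 3.23 and 3.4 FPKM in ES leaves, against 8.53 and 11 FPKM in YL, and SPL15, with 0.213 and 0.0537 FPKM in ES leaves, against 1.89 and 2.11 FPKM in YL.
The PRR9 promoter is shown because it held 2 G-box and 3 ABRE matches, read and marked as above.
PRR9 (chr2:19232357-19232606, plus strand): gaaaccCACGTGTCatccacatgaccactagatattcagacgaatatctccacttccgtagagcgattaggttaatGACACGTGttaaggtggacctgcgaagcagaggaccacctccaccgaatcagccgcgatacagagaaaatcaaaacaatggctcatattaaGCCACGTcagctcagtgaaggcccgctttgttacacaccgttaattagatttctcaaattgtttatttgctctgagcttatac
Among the 11 clock promoters 5 held a G-box and 3 the evening element (AAAATATCT), against 7.39% and 2.52% of all windows, and 6 held an ABRE, against 9.57%.

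Growth genes were lower in ES leaves. Of 20 cell cycle genes 16 were called lower (80%, against 11.9% of all genes) and none higher, with a median of -2.15. Without rescaling 15 were lower and 1 higher. With a filter at 5 FPKM, which leaves fewer of them to test, 8 were called. KNOLLE, the syntaxin of the cell plate, stood at 2.35 and 1.72 FPKM in ES leaves, against 35.5 and 41 FPKM in YL, a difference of -3.70 ± 0.31 (limma, adjusted p = 0.00436). CYCB1;2, a mitotic cyclin, had 0.607 and 0.256 FPKM in ES leaves, against 12.4 and 11.6 FPKM in YL, and CYCD3;1, a cytokinin-responsive cyclin of dividing leaf cells, had 2.98 and 1.35 FPKM in ES leaves, against 24.5 and 23.9 FPKM in YL. CDKA;1, the kinase present in dividing and non-dividing cells, had 48.4 and 35.8 FPKM in ES leaves, against 21.9 and 25.6 FPKM in YL and was not called. Of 5 tested leaf growth regulators 3 were called lower (60%, against 11.9% of all genes, and 1 of 3 without rescaling). ANT, which prolongs cell proliferation, had 0.773 and 0.68 FPKM in ES leaves, against 8.92 and 12.5 FPKM in YL, and the stomatal lineage factor SPCH and the growth factor GRF5 were listed at 0 in ES leaves, against 2.88 and 1.8 FPKM for SPCH in YL and 1.38 and 3.15 FPKM for GRF5.

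Ribosomal protein genes formed a large group. RefSeq notes place 189 genes in the cytosolic ribosome, and 177 of them were tested. Of these 134 were called lower (75.7%, against 11.9% of all genes) and none higher, with a median of -2.04. In 174 both ES libraries lay below both YL libraries, against 33.2% of all genes. Between the replicate 1 libraries the median was -2.21 and between the replicate 2 libraries -1.95, and 93 genes were called lower without rescaling and 81 without the filter. AT1G23410, a ubiquitin and S27a fusion, had 0.793 and 1.09 FPKM in ES leaves, against 16.8 and 19.6 FPKM in YL. RPL24A and RPS6, chosen after their values were seen, had 32.5 and 34 FPKM in ES leaves, against 347 and 276 FPKM in YL for RPL24A and 64.8 and 81.4 FPKM in ES leaves, against 697 and 538 FPKM in YL for RPS6, a member that is phosphorylated in growing cells. RPS6 differed by -3.06 ± 0.41 (limma, adjusted p = 0.0106). These genes exist in near-identical families, so that reads may be split among copies.
The promoter of AT5G60670, a ribosomal protein L11 family gene at 29.5 and 24.8 FPKM in ES leaves, against 291 and 203 FPKM in YL, is shown because it held 2 telo-boxes (AAACCCTA, in capitals), an element known from genes of the plant translation machinery.
AT5G60670 (chr5:24381600-24381849, minus strand): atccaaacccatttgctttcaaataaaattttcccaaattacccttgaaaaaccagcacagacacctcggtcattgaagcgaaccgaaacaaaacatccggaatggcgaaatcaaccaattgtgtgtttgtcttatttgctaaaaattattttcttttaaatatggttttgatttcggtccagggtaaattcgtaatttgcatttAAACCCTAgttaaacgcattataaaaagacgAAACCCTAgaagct
A telo-box was found in 34 of the 177 ribosomal protein promoters (19.2%), in 3.3% of the other genes called lower and in 3.67% of all, a share that was described and not tested.

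**Figure D3:**
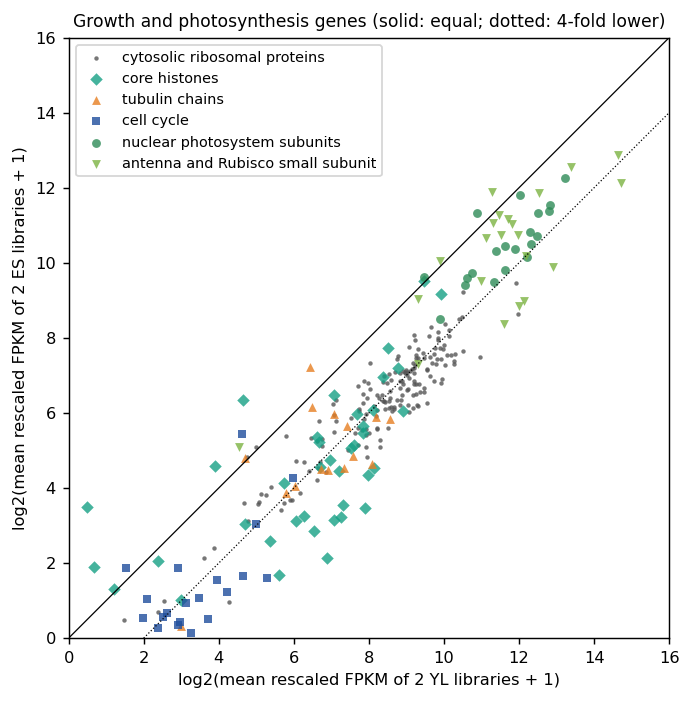
Mean levels of growth and photosynthesis genes, as log2(mean rescaled FPKM + 1), in ES leaves (vertical axis) and YL (horizontal axis), with a solid line for equal levels and a dotted line for 4-fold lower levels in ES leaves. Cytosolic ribosomal protein and cell cycle genes lie around the dotted line, and most photosystem and antenna genes lie between the lines.

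Among the called protein-coding genes the 10 largest rises and 10 largest falls were drawn up. The largest rise over all tested genes, 8.50, was in a gene outside this ranking. Besides PR2, SAG13 and PAP1, the rises were CML41, a calmodulin-like protein, with 279 and 475 FPKM in ES leaves, against 2.49 and 1.2 FPKM in YL, the lipid transfer proteins LTP3, with 200.4 and 1882 FPKM in ES leaves, against 2.66 and 7 FPKM in YL, and LTP4, with 49.2 and 246 FPKM in ES leaves, against 0.94 and 0.29 FPKM in YL, MAPR2, a membrane progesterone-binding homologue, with 113 and 73.4 FPKM in ES leaves, against 0.177 and 0.118 FPKM in YL, and 3 uncharacterized genes. AT1G65541 and AT5G41109 were listed at 0 in YL, and AT5G41109 was at 200.4 and 25 FPKM in ES leaves. LTP3 and LTP4 are neighbouring close copies, and both were higher in ES replicate 2 than in ES replicate 1. The largest fall was GER3 (AT5G20630, chr5:6975029-6976036 in TAIR10.1), a germin-like protein whose transcript cycles with the clock, at 0.234 and 1.01 FPKM in ES leaves, against 2738 and 1084 FPKM in YL, a difference of -10.10 ± 0.55 (limma, adjusted p = 0.00225). PDF1, a gene of the outer layer of the shoot apex and young organs, was listed at 0 in ES leaves and had 583 and 290 FPKM in YL. AT3G05727, AT4G31030 and AT4G29020 were likewise listed at 0 in ES leaves, and had between 180.1 and 397 FPKM in YL. The others were MLP34, a major latex protein homologue, with 0.0429 and 0.126 FPKM in ES leaves, against 269 and 306 FPKM in YL, the defensin-like AT3G05730, and 3 genes annotated as bifunctional inhibitor and lipid-transfer proteins, AT5G48490, AT2G10940 and AT4G22490.

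**Figure D4:**
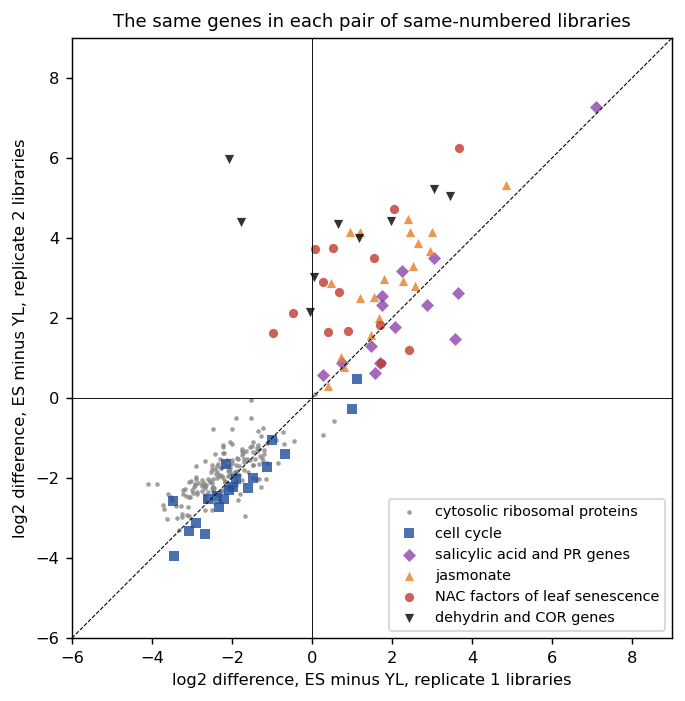
Log2 difference, ES minus YL, between the replicate 1 libraries (horizontal axis) and between the replicate 2 libraries (vertical axis) for the tested members of 6 gene lists, with the dashed line marking equal differences. Cell cycle and ribosomal protein genes lie near the line, whereas dehydrin and COR genes and NAC factors lie mostly above it, with RAB18 and RD29B on opposite sides of 0 in the 2 pairs.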

How the data were processed

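RNA-seq of WT ES and YL leaves was analysed. The authors made TruSeq libraries, aligned the reads to TAIR10 with Bowtie2 and TopHat, collapsed reads at identical positions to 1, and deposited FPKM from Cufflinks, in separate tables for ES and YL leaves. The tables hold no counts of reads per gene, and no counting interval was computed. The study lists total reads for each sample, and these totals were not used here. Tables were joined on gene identifiers (33278, of which 32808 matched RefSeq TAIR10.1 for symbols, types and positions) and rescaled by median ratios over 18988 genes above 0 in all 4 libraries, with factors of 1.14 and 1.32 for ES and 0.8 and 0.864 for YL.

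The difference of log2(FPKM + 1) was tested with limma 3.58.1 in R 4.3.3 (eBayes with a trend, two-sided, 2 libraries against 2, no block), and tables were made with Python 3.11.15, pandas 2.3.3, numpy 2.4.6 and matplotlib 3.10.9. The fit was tested on simulated data. The members and the gene lists were chosen with earlier results of these data known, and support nothing by themselves. No set test was run. Named genes are 13 fixed genes, up to 3 called members in each list and direction, and further list members given as values. The 10 largest rises and falls among called protein-coding genes were named too. Extra genes, the HDA9 list and the annotation groups were chosen after values were seen. Alternatives were a pseudocount of 0.1, no filter, a filter at 5 FPKM, no rescaling, rescaling to 75th percentiles, a replicate block, a fit of all 9 RNA-seq libraries, each library left out, protein-coding genes only, unadjusted p, and a 2-fold threshold.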

Additional observations from a re-analysis of the deposited data

How the results depend on the processing

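The count of genes higher in ES leaves was 1858 and of genes lower 2227. It was 1161 higher without a filter on FPKM, 3970 higher without rescaling, 3639 and 3782 by p before adjustment, and 3341 higher and 3691 lower with a 2-fold threshold and no overlap between the groups. Leaving out each library in turn gave 0 genes in each direction at the adjusted threshold in limma. At an unadjusted p under 0.05 these fits gave 3059, 2722, 2044 and 2483 genes higher and 2935, 2905, 2478 and 2816 lower without ES replicate 1, ES replicate 2, YL replicate 1 and YL replicate 2. The lone library of such a fit is assumed to vary like the other group. Every called gene that was tested there kept its direction in each of these fits, and also under every other alternative fitted. In all 1858 and 2227 called genes the ES and YL values did not overlap. Leaving out a library could therefore hardly reverse a direction, and the kept directions are no separate evidence. Without rescaling 72.4% of calls were higher, instead of 45.5%. Of the genes named by rule, NIA1, TOE2 and CSD1 lost their call without rescaling, RBCS2B and HAI2 in the fit of 9 libraries, and HAI2 with a filter at 5 FPKM. The other counts stayed within 1.5 times, from 1566 to 2784 higher and from 1510 to 3136 lower.

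With a replicate block 2345 genes were called higher and 2818 lower, among them 1828 and 2177 of those called without it, 11 photosystem genes lower instead of 0, 8 antenna and Rubisco genes lower instead of 4, 12 autophagy genes higher instead of 7, and 1 gene named as bound by HDA9 lower instead of 0. SPL15 lost its call and RBCS1A gained one. The numbers do not establish a pairing: with 2 pairs, deviations of same-numbered libraries had a correlation of 0.0997 across genes.

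Directions changed among libraries left out for genes that were not called: the difference ranged between -1.04 and 0.071 for WRKY53, -2.71 and 0.50 for SAG21, -0.70 and 4.65 for RAB18, and -1.0 and 3.69 for RD29B. The list medians ranged between -0.16 and 0.63 for ethylene, -1.40 and 0.17 for cytokinin and -0.13 and 0.14 for glutathione S-transferases, whose median, close to 0, was 0.11 without a filter, 0.091 with a filter at 5 FPKM, 0.59 without rescaling, 0.012 in the fit of 9 libraries and 0.10 without YL replicate 1. The photorespiration median was 0.01 without rescaling. The causes were not tested.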

Other observations

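Further genes outside the lists above were grouped by their RefSeq product names, after values were seen. Of 39 tested genes with a histone product 24 were called lower in ES leaves and 2 higher, against 11.9% lower and 9.94% higher among all tested genes, with a median difference of -2.18, and HTA6, an H2A gene, had 13.8 and 6.31 FPKM in ES leaves, against 293 and 179 FPKM in YL. The 2 higher ones were HTA4 and AT2G28720, which had 76.8 and 84.7 FPKM in ES leaves, against 16.8 and 31.4 FPKM in YL. Of 15 tubulin genes 11 were called lower (73.3%, against 11.9% of all genes) and none higher, with a median of -2.22. TUA2 had 17.7 and 30.3 FPKM in ES leaves, against 301 and 234 FPKM in YL. Of 19 tested expansins, which loosen the cell wall, 12 were called lower (63.2%, against 11.9% of all genes) and none higher. EXPA15 had 1.27 and 0.6 FPKM in ES leaves, against 29.6 and 43.4 FPKM in YL. In the same direction, 29 of 55 bifunctional inhibitor and lipid-transfer proteins (52.7%) and 24 of 46 arabinogalactan and fasciclin-like proteins (52.2%) were called lower. These shares stand against 11.9% of all genes, and 1 of each group was called higher. AGP21 had 10.4 and 7.63 FPKM in ES leaves, against 729 and 477 FPKM in YL. Of 47 glutathione S-transferases 5 were called higher and 5 lower (10.6% each), and of 86 UDP-glycosyltransferases 7 higher (8.14%) and 10 lower (11.6%), shares near those of all genes. GSTF12, needed for anthocyanin transport, had 69 and 307 FPKM in ES leaves, against 8.18 and 2.16 FPKM in YL, and GSTU26 had 0.298 and 0.689 FPKM in ES leaves, against 12.9 and 14.6 FPKM in YL.

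PYK10, the main beta-glucosidase of the ER bodies of seedlings and roots, had 2.19 and 9.67 FPKM in ES leaves, against 777 and 1060 FPKM in YL. No explanation was tested for these groups.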
